A study of Mus musculus with 7 samples.

Results

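Pink1, Tmem11 and a set of genes of mitophagy were followed in mouse leukemia cells given BRD7116, a small molecule that the labels identify by code name alone. The 10 genes were Pink1, Tmem11, Bnip3, Bnip3l, Fundc1, Sqstm1, Optn, Phb2, Mfn2 and Usp30, and every array probe that the platform annotation assigns to one of these symbols was kept apart. This gave 13 probes for 9 genes, of 25697 probes and 16593 named genes on the array. No probe carried the symbol Optn, so this gene is not analysed here. Pink1 and Tmem11 were picked because their difference between BRD7116 and DMSO stood out in these same arrays, and the other genes were set beside them by function with that result known. All values of the 10 genes in this comparison are therefore a description, with no test.

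The cells are labelled as leukemia stem cells and were freshly isolated. The BRD7116 group held 5 arrays of cells kept for 6 h in suspension with 5 µM BRD7116 in 0.2% DMSO, and the DMSO group held 2 arrays of cells kept for 6 h with 0.2% DMSO alone. The labels give neither the oncogene nor the strain or age of the mice, and leave unstated whether replicates came from different cultures or mice, so the spread between arrays, and any p-value from it, may be technical. In bulk RNA such as this, fewer cells of a type and less RNA per cell cannot be told apart.

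Mitophagy is the removal of damaged or surplus mitochondria by autophagy. In one route the kinase PINK1 builds up on damaged mitochondria and marks their surface with phosphorylated ubiquitin, which recruits the ligase Parkin and then adaptor proteins such as p62 (gene Sqstm1) and optineurin. In the other, receptors that sit in the mitochondrial membrane (BNIP3, BNIP3L, FUNDC1, PHB2) bind the ATG8 proteins of the autophagosome directly, and BNIP3L is best known for clearing mitochondria from maturing red cells.

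The arrays lay on 3 chips, and chip 1 was dim. On it, 4585 probes had a detection p under 0.05 for BRD7116 replicate 1 and 4412 for DMSO replicate 2, compared with 6749 to 8451 on the other 5 arrays. BRD7116 replicate 2 shared chip 2 with DMSO replicate 1, while chip 3 carried BRD7116 replicates 3, 4 and 5 and no control. Of the markers of myeloid progenitors, 7 of 9 genes with a probe were detected on all 7 arrays, among them Meis1, Hoxa9, Mpo and Elane, while Cd34 was detected on none and no probe carried the symbol Kit. None of the 5 T cell marker genes was detected on any array. Of other lineages, both probes of the B cell gene Cd79b were detected on 4 BRD7116 arrays and 1 DMSO array, and 1 probe of Pecam1, from the endothelial list, on 5 BRD7116 arrays and 1 DMSO array. From the same lists, 1 probe of Cxcl12 was detected on 2 BRD7116 arrays and 1 DMSO array, and Pax5 on 1 BRD7116 array. Cd79a, Ms4a1, Cdh5, Col1a1, Col1a2, Col3a1 and Pdgfrb were detected on none. The part of such cells in the results was not tested.

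The upstream sequences of Pink1 and Tmem11 are shown because these genes differed most between the groups, and that of Bnip3 because it holds the CACGTG motif. RefSeq windows of assembly GRCm38.p6 were found for 9 of the 10 genes, all but Bnip3l. The 250 bases before the annotated start of each were read 5′ to 3′ on the gene's strand, here the minus strand for all 3, with motif matches in capitals. They lie at chr4:138326297-138326546 for Pink1, chr11:60879039-60879288 for Tmem11 and chr7:138909507-138909756 for Bnip3.
Pink1: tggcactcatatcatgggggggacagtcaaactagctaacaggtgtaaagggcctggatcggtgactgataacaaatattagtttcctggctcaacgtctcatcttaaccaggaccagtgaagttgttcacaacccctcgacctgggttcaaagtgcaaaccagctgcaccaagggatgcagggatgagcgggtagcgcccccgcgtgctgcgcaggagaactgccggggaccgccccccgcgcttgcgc
Tmem11: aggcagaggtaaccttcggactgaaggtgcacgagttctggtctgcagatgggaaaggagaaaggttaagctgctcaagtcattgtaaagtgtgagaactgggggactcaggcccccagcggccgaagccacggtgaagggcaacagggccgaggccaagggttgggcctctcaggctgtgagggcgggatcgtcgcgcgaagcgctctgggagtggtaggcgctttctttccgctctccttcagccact
Bnip3: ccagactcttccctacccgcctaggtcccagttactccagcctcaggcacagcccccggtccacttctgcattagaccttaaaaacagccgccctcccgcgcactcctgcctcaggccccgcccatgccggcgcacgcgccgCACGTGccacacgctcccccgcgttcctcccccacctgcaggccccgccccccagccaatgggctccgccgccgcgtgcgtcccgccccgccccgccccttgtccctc

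A group of 4 motifs was searched on both strands. CACGTG, the core that TFEB binds at lysosomal and autophagy genes, occurs in 6.02% of all 32851 RefSeq windows of this length, and ACGTG, the core of hypoxia response elements that it contains, in 16.6%. TGACNNNGC, the core of antioxidant response elements, occurs in 10.2%, and TGATGNAA, the composite site of C/EBP and ATF4 factors, in 3.45%. Neither the Pink1 nor the Tmem11 window held any of the 4. Bnip3 held CACGTG beginning 108 bases before the start. Phb2 and 1 of the 3 Mfn2 windows held ACGTG, and Fundc1, Sqstm1, Optn and Usp30 held no match.

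PINK1 is the kinase that marks damaged mitochondria, and Pink1 was read by 2 probes. The brighter probe, ILMN_1255556, lay at one narrow level on all BRD7116 arrays and was lower on both DMSO arrays. Its deposited intensities were 178.4, 285, 222, 199 and 289 in BRD7116 replicates 1 to 5, against 200 and 189 in DMSO replicates 1 and 2. After background correction and quantile normalization its log2 levels were 6.30, 6.26, 6.22, 6.29 and 6.37 with BRD7116, against 5.39 and 5.25 with DMSO. The groups did not overlap, and the 5 BRD7116 arrays lay closer to each other than to either control.

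The mean level of this Pink1 probe was 6.29 ± 0.05 (SD, n = 5) with BRD7116 and 5.32 ± 0.10 (SD, n = 2) with DMSO. The log2 difference was 0.97 with a standard error of 0.16, and 1.38% of the 8613 probes detected on at least 2 arrays had a larger one. Within chip 1 the difference was 1.05, and within chip 2 it was 0.87. Both control readings were below detection, so these differences are not exact sizes. On the dim chip the raw intensity was 178.4 for BRD7116 replicate 1, whose median over all probes was 156.0, and 188.9 for DMSO replicate 2, whose median was 178.4. Without both arrays of chip 1 the normalized difference was 1.04.

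The size of the Pink1 difference varied with the processing. The authors' deposited log2 values gave 7.90 ± 0.01 (SD, n = 5) with BRD7116 and 7.64 ± 0.03 (SD, n = 2) with DMSO, a log2 difference of 0.26. An offset of 50 in place of 16, with nothing else changed, gave 0.60. Normexp correction with the offset of 50 gave 0.49, and no background correction gave 0.30. In the authors' values the 5 BRD7116 arrays again lay above both controls. Those values and the normalized levels both ran in the order of the probe's rank on each array, so this was no separate check.

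The arrays differed in how low a signal they could detect. The Pink1 probe ILMN_1255556 was detected on 5 of 5 BRD7116 arrays and on 0 of 2 DMSO arrays. On DMSO replicate 1 its detection p was 0.0576, just over the threshold, and on DMSO replicate 2 it was 0.208. The lowest detected level was 6.11 on BRD7116 replicate 1 and 6.20 on DMSO replicate 2, against 5.23 to 5.42 on the other 5 arrays. Taking these limits for the undetected controls, the group means put Pink1 at least 1.39-fold higher with BRD7116. This holds for the mean of the arrays and for this processing only. On chip 1 alone the limit of 6.20 lay close to the level of 6.30 on BRD7116 replicate 1. The authors' values, with a log2 difference of 0.26, gave a smaller fold.

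The rank of a probe's raw intensity on its array does not depend on the background correction. For Pink1 it stood above 82.9% to 84.0% of all probes on the BRD7116 arrays. On DMSO replicates 1 and 2 it stood above 73.1% and 68.2% of probes. The probe was not detected on either control, so these 2 ranks lie in the background range. The lowest detected probe stood above 73.7% of probes on DMSO replicate 1 and 82.8% on DMSO replicate 2, the second of which is close to the BRD7116 ranks.

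The dimmer Pink1 probe, ILMN_2616573, was close to background throughout. Its log2 levels were 5.13, 5.35, 5.73, 5.08 and 5.27 with BRD7116, against 4.90 and 4.97 with DMSO, with detection on BRD7116 replicates 2 and 3 alone. The log2 difference was 0.37 with a standard error of 0.22, and it was 0.16 within chip 1 and 0.44 within chip 2. All BRD7116 arrays lay above both controls here too, but the undetected controls allow no bound above 1. Over the 7 arrays the pair of Pink1 probes had a Pearson correlation of 0.60.

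TMEM11 is a mitochondrial membrane protein that shapes the inner membrane folds and, in human cells, binds BNIP3 and BNIP3L and restrains mitophagy. Tmem11 was read by 1 probe, ILMN_2646138, whose intensities were 186, 341, 282, 238 and 284 in BRD7116 replicates 1 to 5, against 211 and 185 in DMSO replicates 1 and 2. Its log2 levels were 6.88, 6.81, 6.84, 6.93 and 6.32 with BRD7116, against 5.73 and 5.13 with DMSO. All BRD7116 arrays lay above both controls, with BRD7116 replicate 5 apart from the other 4 on the low side.

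The Tmem11 probe averaged 6.76 ± 0.25 (SD, n = 5) with BRD7116 and 5.43 ± 0.43 (SD, n = 2) with DMSO, a log2 difference of 1.33 with a standard error of 0.25. A larger difference was found for 0.139% of the 8613 probes. The difference was 1.75 within chip 1, where the DMSO array did not detect the probe, and 1.08 within chip 2, where both arrays did. Without DMSO replicate 2 it was 1.08, without both arrays of chip 1 it was 1.12, and the authors' values gave 0.38. By rank the probe stood above 83.6% to 87.7% of probes with BRD7116, against 78.7% and 61.3% in DMSO replicates 1 and 2, and was not detected on replicate 2.

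**Figure D1:**
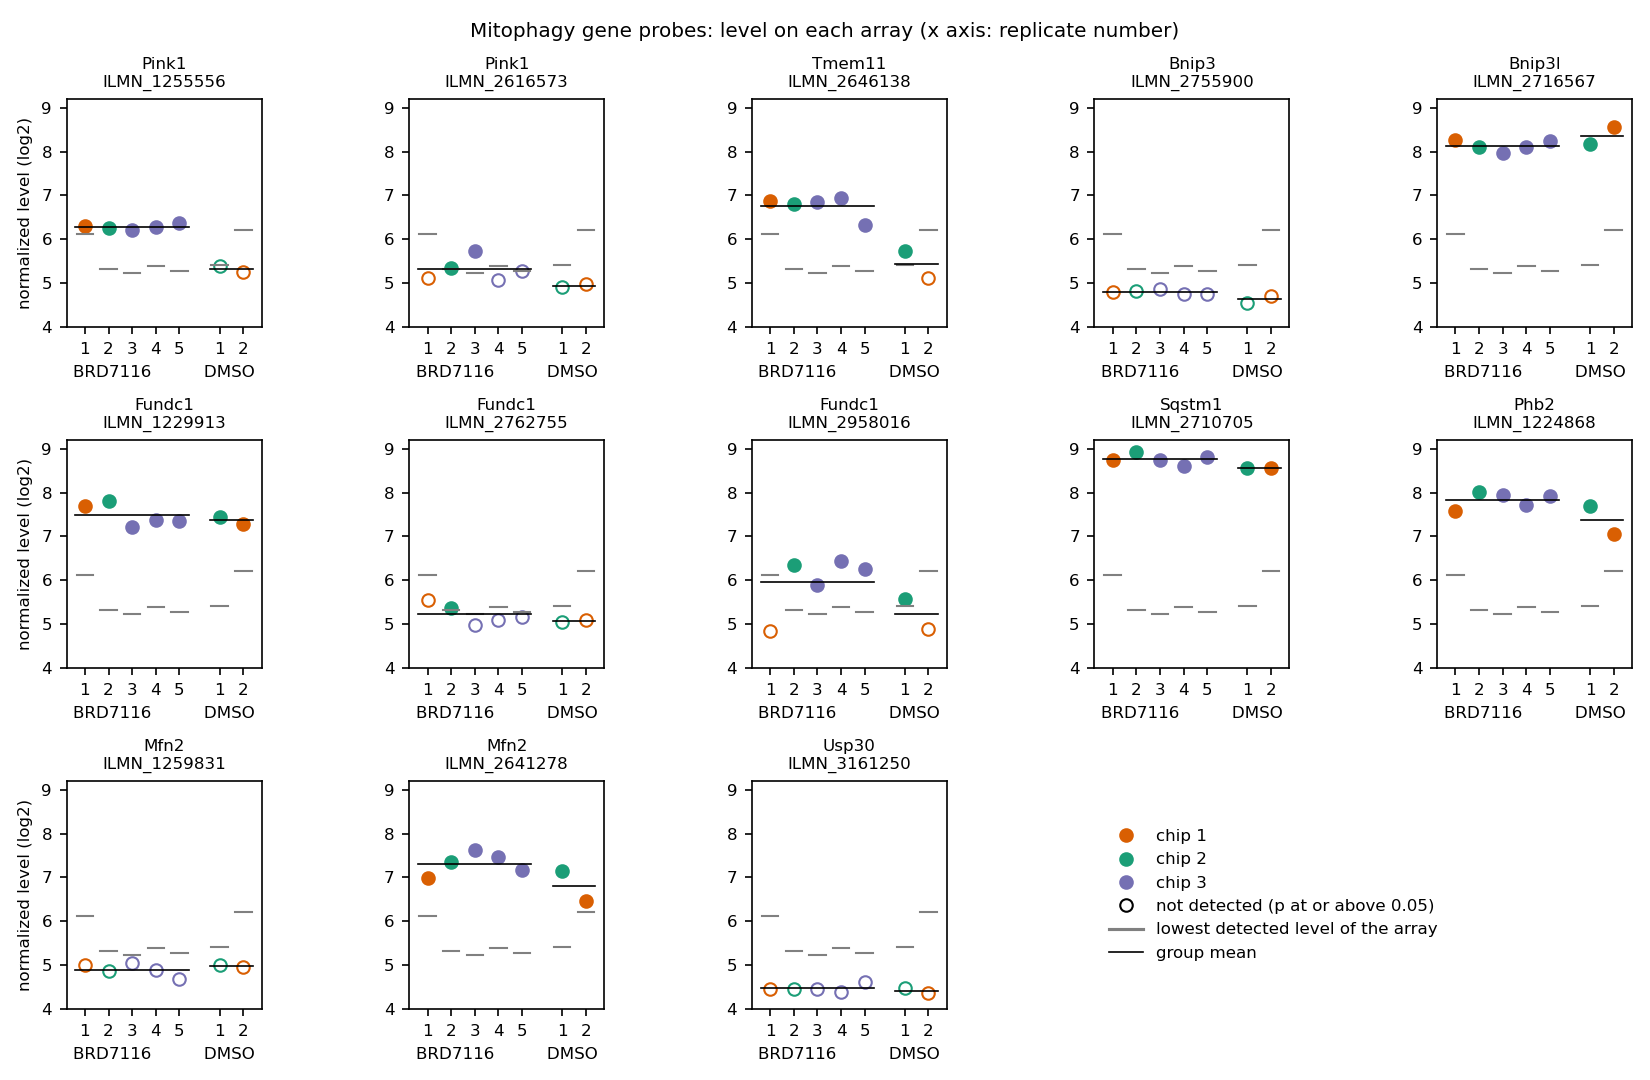
Normalized log2 level of the 13 probes on each array (y axis) by replicate number (x axis), BRD7116 left of DMSO. Colours mark the chip, open points arrays on which the probe was not detected, grey dashes the lowest detected level of that array and black lines the group means. The Pink1 probe ILMN_1255556 sits between 6.22 and 6.37 on the BRD7116 arrays and at 5.39 and 5.25 on the DMSO arrays.

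Pink1 and Tmem11 moved together over the 7 arrays, with a Pearson correlation of 0.92, which holds the shared difference between the groups as well as shared chips. Among 8115 other named probes, those most like the brighter Pink1 probe were Arhgef3 (r = 0.986), Cops2 (r = 0.983) and Mt1 (r = 0.980). The 3 most like Tmem11, among 8116, were Asns (r = 0.976), Mrpl46 (r = 0.974) and Ppm1a (r = 0.972). With 7 arrays and so many probes, correlations of this size are a description only. Mt1 encodes a metallothionein, and its log2 difference was 1.46. Asns encodes asparagine synthetase, and its log2 difference was 0.64 for this probe, ILMN_2643513, and 0.24 for its other probe.

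The measured receptor genes differed among themselves. BNIP3L, also called NIX, is a receptor in the outer mitochondrial membrane, and its probe ILMN_2716567 was detected on all 7 arrays. Bnip3l log2 levels were 8.27, 8.11, 7.97, 8.10 and 8.23 with BRD7116, against 8.16 and 8.55 with DMSO. The groups overlapped, with DMSO replicate 2 highest.

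Bnip3l averaged 8.14 ± 0.12 (SD, n = 5) with BRD7116 and 8.36 ± 0.28 (SD, n = 2) with DMSO, a log2 difference of -0.22 with a standard error of 0.19. It was -0.28 within chip 1 and -0.05 within chip 2, and without DMSO replicate 2 it was -0.02. Median scaling in place of quantile normalization turned it to 0.62, or 0.09 relative to the shift of all probes. Since Bnip3l serves in red cell maturation, red cell markers were read beside it. Hba-a1 averaged 7.46 ± 0.26 (SD, n = 5) with BRD7116 and 8.38 ± 0.12 (SD, n = 2) with DMSO. The 12 probes for 8 red cell marker genes were added on the linear scale. The log2 of the sum was 9.91 to 10.26 with BRD7116 and 10.41 to 10.76 with DMSO. This sum rests mainly on Hba-a1 and Tfrc, whose 2 probes averaged 8.62 and 7.82 with BRD7116 and 9.28 and 8.34 with DMSO. It does not describe the marker genes as a set. Hba-a1 and Tfrc were detected on all 7 arrays, whereas Alas2, Hbb-b2, Klf1 and Slc4a1 were detected on none. Of Gata1, 1 probe was detected on 1 BRD7116 array, and of Trim10, 1 probe on 1 array of each group. The part of red cells in the Bnip3l values was not tested.

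BNIP3, the hypoxia-induced relative of BNIP3L, was represented by ILMN_2755900, which was detected on no array. The Bnip3 detection p was 0.461 or more on every array, so that its log2 levels of 4.76 to 4.87 with BRD7116 and 4.55 to 4.71 with DMSO are background readings. They carry no fold even though the groups did not overlap.

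FUNDC1 is an outer membrane receptor that acts in mitophagy under low oxygen, and it was read by 3 probes. ILMN_1229913, detected on all 7 arrays, had log2 levels of 7.69, 7.81, 7.21, 7.37 and 7.35 with BRD7116, against 7.43 and 7.29 with DMSO. The groups overlapped, and the BRD7116 arrays of chips 1 and 2 lay above those of chip 3. The log2 difference was 0.12 with a standard error of 0.22 over the 7 arrays, 0.39 within chip 1, 0.37 within chip 2 and 0.38 with chip as a block. Without both arrays of chip 1 it was -0.00086.

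The Fundc1 probe ILMN_2958016 had log2 levels of 4.84, 6.34, 5.90, 6.44 and 6.25 with BRD7116, against 5.57 and 4.88 with DMSO. It was undetected on both arrays of the dim chip, which gave the lowest 2 values, one from each group. The log2 difference was 0.73 with a standard error of 0.44, but it was -0.04 within chip 1 and 0.78 within chip 2. The remaining probe, ILMN_2762755, was detected on BRD7116 replicate 2 alone. Its Pearson correlation of 0.87 with ILMN_1229913 over the 7 arrays therefore rests mainly on background readings. The 2 Fundc1 probes that passed the filter had a correlation of -0.006, and no single value is given for the gene.

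PHB2, an inner membrane prohibitin, becomes a receptor once the outer membrane has ruptured. Its probe ILMN_1224868 had log2 levels of 7.57, 8.01, 7.95, 7.72 and 7.92 with BRD7116, against 7.69 and 7.06 with DMSO. BRD7116 replicate 1, on the dim chip, lay below DMSO replicate 1, so the groups overlapped. The Phb2 mean was 7.83 ± 0.18 (SD, n = 5) with BRD7116 and 7.38 ± 0.45 (SD, n = 2) with DMSO, a log2 difference of 0.46 with a standard error of 0.23. Its correlation over the 7 arrays was 0.72 with the brighter Pink1 probe and 0.73 with Tmem11. The Phb2 difference was 0.51 within chip 1 and 0.31 within chip 2, and it was 0.14 without DMSO replicate 2.

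The adaptor gene Sqstm1 encodes p62, which ties ubiquitin-marked cargo to the autophagosome and is itself degraded there. ILMN_2710705 had intensities of 265, 893, 719.7, 461 and 933 in BRD7116 replicates 1 to 5, against 543 and 274 in DMSO replicates 1 and 2. Sqstm1 log2 levels were 8.74, 8.93, 8.73, 8.61 and 8.81 with BRD7116, against 8.55 and 8.56 with DMSO. All BRD7116 arrays lay above both controls.

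Sqstm1 averaged 8.76 ± 0.12 (SD, n = 5) with BRD7116 and 8.55 ± 0.01 (SD, n = 2) with DMSO, a log2 difference of 0.21 with a standard error of 0.17. It was 0.18 within chip 1, 0.38 within chip 2 and 0.22 without both arrays of chip 1. Unlike Phb2, its value hardly depended on which array was left out, with a range of 0.17 to 0.24. It was also small, and 35.7% of all 8613 probes had a larger difference.

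Mfn2 encodes mitofusin 2, an outer membrane fusion protein that PINK1 phosphorylates and Parkin ubiquitinates. The probe ILMN_2641278 had log2 levels of 6.98, 7.36, 7.62, 7.46 and 7.16 with BRD7116, against 7.15 and 6.47 with DMSO. BRD7116 replicate 1 lay below DMSO replicate 1, as for Phb2. The Mfn2 mean was 7.32 ± 0.25 (SD, n = 5) with BRD7116 and 6.81 ± 0.48 (SD, n = 2) with DMSO, a log2 difference of 0.50 with a standard error of 0.26, and it was 0.17 without DMSO replicate 2. Within chip 1 the difference was 0.51 and within chip 2 it was 0.21. The other Mfn2 probe, ILMN_1259831, was detected on no array.

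The levels of Mfn2 and Bnip3l ran opposite to each other over the 7 arrays, with a Pearson correlation of -0.99, the extreme of the 36 pairs among 9 probes and chosen after it was seen. DMSO replicate 2 was lowest for Mfn2 and highest for Bnip3l, and BRD7116 replicate 3 was highest for Mfn2 and lowest for Bnip3l. Phb2 and Mfn2 ran together (r = 0.88). These points share chips and a common normalization.

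USP30, a deubiquitinase of the outer membrane, opposes Parkin. Its probe ILMN_3161250 was detected on no array, with a detection p of at least 0.857, so Usp30 was not measurable at this signal.

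**Figure D2:**
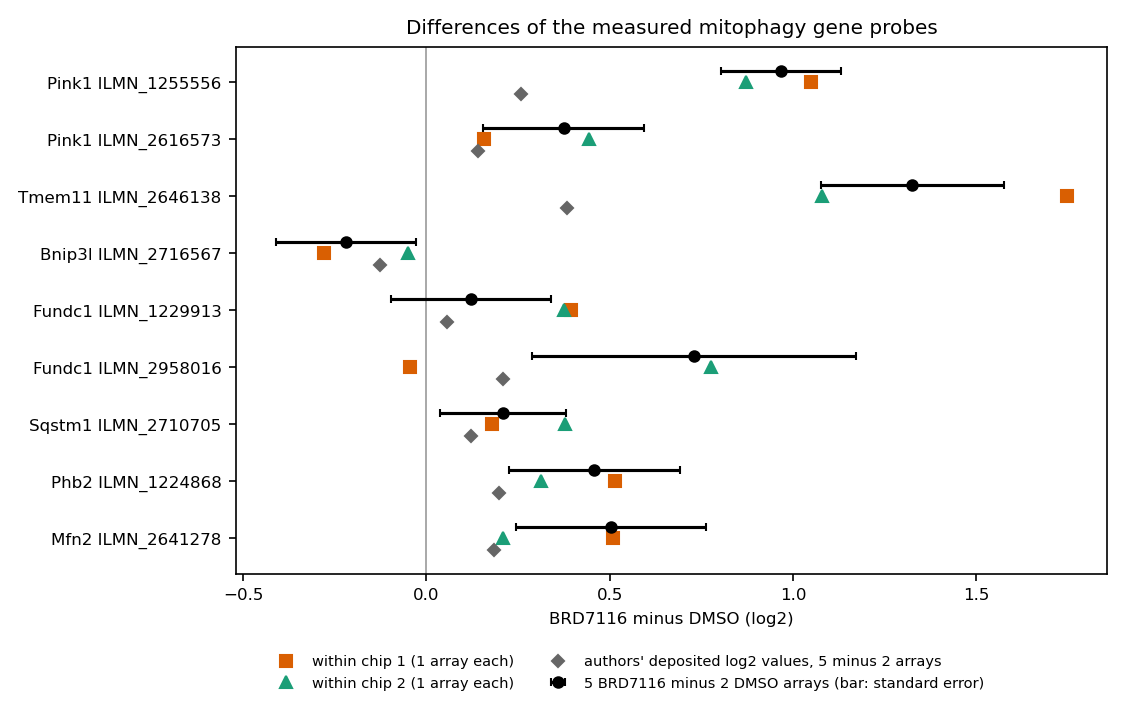
Log2 difference of BRD7116 minus DMSO (x axis) for the 9 probes detected on at least 2 arrays (y axis). Black points are the 5 against 2 arrays with their standard error, squares and triangles the single pairs within chips 1 and 2, and diamonds the authors' values. Pink1 ILMN_1255556 (0.97) and Tmem11 (1.33) lie above 0 in all 4 readings, with 0.26 and 0.38 in the authors' values.

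Of the 13 probes, 9 passed the detection filter, for 7 genes, and 5 of these were detected on all 7 arrays. Among the 9, 8 had a higher mean with BRD7116, as did 57.4% of all 8613 probes, and for 4 all BRD7116 arrays lay above both DMSO arrays, as for 5.7% of all probes. For 0 of the 9 all BRD7116 arrays lay below both, as for 5.12% of all probes. The 4 were both Pink1 probes, Tmem11 and Sqstm1. Differences in both chips were above 0 for 7 of the 9, against 27.7% of all probes, and below 0 for 1, against 25.1%. Nothing is read from these counts, because the genes were picked on this comparison and a probe detected on BRD7116 arrays alone could pass the filter. Across all 8613 probes, limma called 0 at an adjusted p under 0.05, which is 0% of those tested, and at an unadjusted p under 0.05 it called 278 higher (3.23%) and 296 lower (3.44%).

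Other genes of mitophagy and autophagy were read from 7 lists arranged by role. No member was picked by its own change, but the lists were drawn up with earlier results of these data known. Of 92 symbols, 81 had a probe and 52 genes, with 65 probes, passed the filter. No probe of these lists passed the adjusted threshold in either direction. At an unadjusted limma p under 0.05, 3 of 65 were higher and 0 lower, against 3.23% and 3.44% of all 8613 probes. The mean was higher with BRD7116 for 43 of the 65, against 57.4% of all 8613 probes. That 57.4% is also the share to set beside the counts by list below. The median log2 difference was 0.16, against 0.07 over all 8613 probes. It was 0.02 without DMSO replicate 2, against -0.01 over all probes, and 0.29 without DMSO replicate 1, against 0.17. Within chips 1 and 2 it was 0.02 and 0.07, and a chip block gave 0.02. A probe detected on BRD7116 arrays alone could pass the filter, and such probes are in the counts and medians of these lists. Nothing is therefore read from them, here or by list below. For the 26 probes of these lists detected on all 7 arrays the median log2 difference was 0.0042, against -0.02 over all 3088 such probes.

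In the PINK1-Parkin arm, the mean was higher with BRD7116 for 13 of 17 probes and lower for 4, and the median was 0.25, but within chip 1 it was -0.06 and within chip 2 it was 0.08. Parl, the inner membrane protease that cleaves PINK1, had log2 levels of 9.95 ± 0.10 (SD, n = 5) with BRD7116 and 9.95 ± 0.09 (SD, n = 2) with DMSO. Park7, which encodes the oxidative stress sensor DJ-1, had 10.26 ± 0.09 (SD, n = 5) with BRD7116 and 10.23 ± 0.02 (SD, n = 2) with DMSO. Both differences were smaller than the spread of the BRD7116 arrays.

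Among other receptors and adaptors, 5 of 11 probes had a higher mean and the median was -0.01. Tax1bp1, a ubiquitin-binding adaptor, had 9.86 ± 0.21 (SD, n = 5) with BRD7116 and 9.92 ± 0.37 (SD, n = 2) with DMSO, and Fkbp8, an outer membrane receptor, had 8.66 ± 0.14 (SD, n = 5) with BRD7116 and 8.66 ± 0.13 (SD, n = 2) with DMSO. Of the ATG8 genes, whose products coat the autophagosome, Gabarap had 10.24 ± 0.17 (SD, n = 5) with BRD7116 and 10.21 ± 0.46 (SD, n = 2) with DMSO. Gabarapl1, detected on 5 of the 7 arrays, had a log2 difference of 0.19 and a standard error of 0.35.

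Core autophagy genes had a median of 0.25 over 21 probes, 15 of them with a higher mean, with 0.03 within chip 1 and 0.24 within chip 2. Atg10, an enzyme of ATG12 conjugation, and Uvrag, a partner of beclin 1, had log2 differences of 0.004 (standard error 0.21) and -0.18 (standard error 0.24). The 3 probes at an unadjusted p under 0.05 were of Becn1, Pik3c3 and Atg3, and were named after their values were seen. Becn1 and Pik3c3 encode subunits of the lipid kinase complex that starts the autophagosome, and Atg3 the enzyme that joins ATG8 to lipid.

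Pik3c3 was detected on all 7 arrays, with 7.99 ± 0.15 (SD, n = 5) with BRD7116 and 7.44 ± 0.36 (SD, n = 2) with DMSO (log2 difference 0.55, standard error 0.21, limma adjusted p = 0.689). Becn1 was detected on 4 BRD7116 arrays and neither control, and so passed the filter through the BRD7116 group alone. Its levels were 6.00 ± 0.20 (SD, n = 5) with BRD7116 and 5.23 ± 0.24 (SD, n = 2) with DMSO (limma adjusted p = 0.689), with the undetected BRD7116 array in the mean. The Atg3 probes disagreed, at 0.47 (standard error 0.20) for ILMN_2651781 and -0.43 (standard error 0.20) for ILMN_2595188.

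In the remaining lists, 1 transcription factor probe passed the filter, Hif1a, which was undetected on both controls and allows no bound above 1. Cristae genes, to which Tmem11 is tied, had a median of 0.19 over 8 probes, 5 of them with a higher mean, but 0.01 within chip 1 and 0.03 within chip 2. Immt, the core of the complex that holds the inner membrane folds, had 8.77 ± 0.16 (SD, n = 5) with BRD7116 and 8.53 ± 0.14 (SD, n = 2) with DMSO. Mtx1, an outer membrane protein of the same contact sites, gave -0.34, 0.21 and -0.39 by its 3 probes. Of the 5 fission probes, 2 had a higher mean and the median was -0.01. Fis1, an outer membrane fission factor, had 9.48 ± 0.10 (SD, n = 5) with BRD7116 and 9.50 ± 0.04 (SD, n = 2) with DMSO, and Dnm1l, the fission GTPase, gave 0.43 and -0.01 by its 2 probes.

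**Figure D3:**
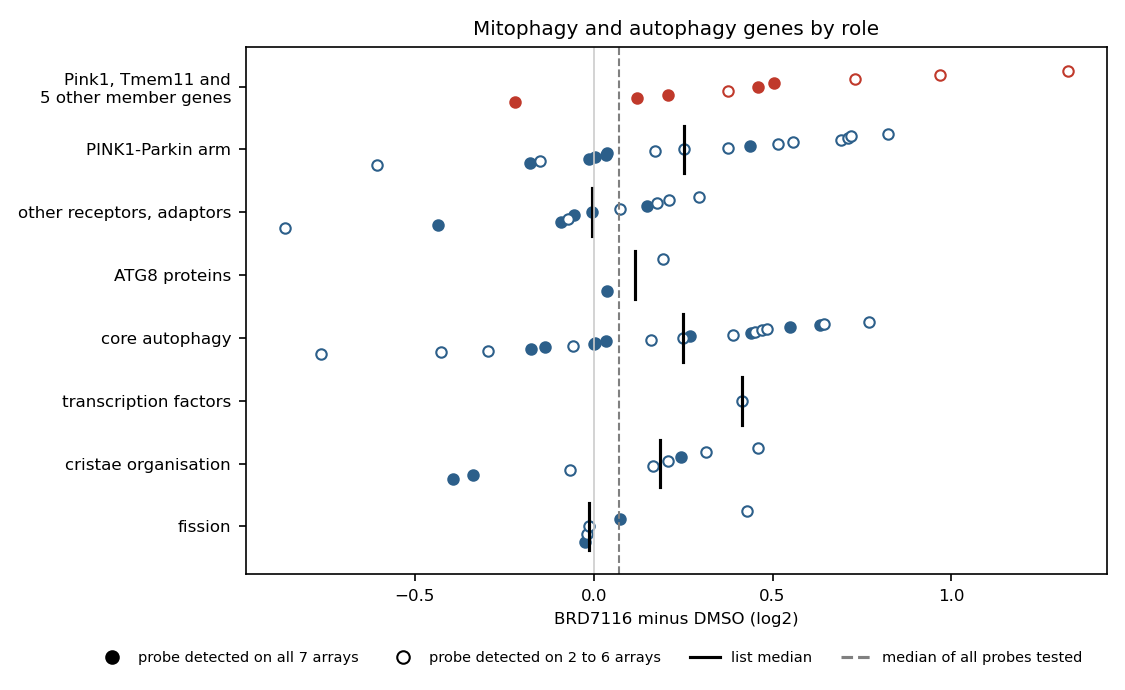
Log2 difference of BRD7116 minus DMSO (x axis) for each probe detected on at least 2 arrays, by role (y axis). Filled points were detected on all 7 arrays, black bars are list medians and the dashed line is the median of all 8613 probes (0.07). Tmem11 (1.33) and Pink1 (0.97) are the points farthest to the right. Both are open, because neither control array detected this Pink1 probe and DMSO replicate 2 did not detect Tmem11.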

How the data were processed

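For every array the authors deposited 25697 probe intensity values of a MouseRef-8 v2.0 BeadChip, not normalized, each paired with a detection p-value. The authors also deposited log2 values of unstated method, with the same median (7.52) in every column, which served as an alternative. Background was corrected by negative controls inferred from detection p-values (offset 16), followed by quantile normalization and conversion to log2 (neqc, limma 3.58.1, R 4.3.3). The filter kept the 8613 probes whose detection p was below 0.05 on 2 arrays or more. On these, lmFit and eBayes gave the difference of BRD7116 and DMSO without covariates, with Benjamini-Hochberg adjustment. The fit was tested on simulated data with independent noise on each array and no chip effect, which does not cover shared chips. Symbols came from the platform annotation, 1 for 23978 probes and none for 1719. Named were all member probes, the 2 genes of highest mean level per role list, and the 3 most like Pink1 and Tmem11. The members and lists were chosen with earlier results of these data known. Sequences came from RefSeq. A probe undetected on a whole group had the group's limit or its own level, whichever was higher, taken per array. The number of arrays limits the precision. Alternatives changed background correction, offset, normalization, filter, probe choice, prior, blocks and arrays. Where arrays were left out, the remaining ones were background corrected, quantile normalized and filtered anew.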

Additional observations from a re-analysis of the deposited data

Results flagged for a closer look

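Among the 5 BRD7116 arrays, replicate 5 stood apart for Tmem11, at a log2 level of 6.32 where the nearest other array had 6.81. This gap was 0.809 of the group's range. The 13 probes were examined in this way, and chance flags about 1 in 20 groups. Without this array, and with the remaining arrays normalized anew, the Tmem11 log2 difference was 1.33. Normalizing anew also shifted the levels of the other arrays, so this value does not isolate the weight of replicate 5.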

How the results depend on the processing

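Over 19 alternatives, Pink1 (ILMN_1255556), Tmem11, Sqstm1, Phb2 and Mfn2 (ILMN_2641278) stayed higher with BRD7116 wherever they were measured. These were not 19 separate checks. Filter, probe choice and prior left the difference of a probe unchanged by construction. Background correction, offset and the authors' values kept the order of the arrays, so they could not turn the sign where the groups did not overlap. Bnip3l turned to 0.62 with median scaling. Fundc1 (ILMN_1229913) had practically no difference without both arrays of chip 1 (-0.00086, remaining arrays normalized anew). Median scaling moved the median of all probes to 0.53, and relative to that shift the dimmer Pink1 probe had -0.07, Pink1 (ILMN_1255556) 0.51 and Tmem11 0.83. It gave the other mitophagy and autophagy genes a median of 0.66, or 0.13 relative to the shift. The count past the adjusted threshold was 1 with offset 50, with normexp correction at that same offset, with detection on all 7 arrays, with no filter and with the authors' values (Mt1 each time), and 2 with no background correction and with a trended robust prior (Mt1 and Rnu6). Leaving out 1 array gave 0 to 706, and 0 to 3 for the other mitophagy and autophagy genes. The high counts came without DMSO replicate 1, where the dim array was the only control, assumed to vary like the treated ones. The 3 were Mfn1 (higher), Nbr1 and Rb1cc1 (lower). At an unadjusted p under 0.05 that fit gave 1056 higher and 903 lower probes, against 278 and 296 with all arrays. Without DMSO replicate 2 there were 57 and 81, without BRD7116 replicate 1 there were 844 and 481, with median scaling 32 and 0, with no filter 565 and 1086, and with chip as a block 586 and 494. Equal replicate numbers never shared a chip and were not treated as a pairing. Deviations from the group means correlated at 0.52 and 0.32 between the arrays of chip 1 and of chip 2, and with 2 controls the values for equal numbers, -0.52 and -0.32, are the mirror image by construction. With the replicate block 0 probes passed the adjusted threshold, 12 were higher and 3 lower at an unadjusted p under 0.05, Pink1 had 0.96 and Tmem11 1.41. These differences equal those with chip as a block by construction. The same 4 arrays, replicates 1 and 2 of each group, set both. Signal over background limits Bnip3, Usp30, the dimmer Mfn2 probe and ILMN_2762755 of Fundc1, which gave no usable level.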
